A study of Caenorhabditis elegans with 20 samples.

Results

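The mRNA of lin-35 mutant L3 larvae was compared with that of wild-type L3 larvae of the nematode Caenorhabditis elegans, gene family by gene family and tissue by tissue. Members of the comparison were all genes with a mean of at least 1 RPKM (reads scaled by gene length and library size) over the 6 RNA-seq libraries, which left 9679 of the 15568 genes in the deposited table. The series also holds chromatin profiles that were not used here. Whole larvae were collected, so the values average all tissues, and fewer cells of a type cannot be told apart from less RNA per cell.

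The wild-type group was N2, the Bristol reference strain, and the mutant group was lin-35(n745), strain JA1507, with 2 libraries each. A further 2 libraries of htz-1(ok3099) larvae, which lack zygotic histone H2A.Z and were picked from a balanced stock with a worm sorter, entered the fit for its estimate of the spread. The labels name strain VC2490 for them. All animals were L3 larvae grown in liquid culture at 20 °C as a mixed population of males and hermaphrodites. Embryos from bleached cultures had hatched in M9 buffer for 24 to 42 h, and a sucrose gradient was used to clean the larvae of the N2 and lin-35 groups. The n745 allele is a nonsense mutation, so the lin-35 transcript level does not check the labels. Nothing in the labels says that the replicates came from separate cultures, so the p-values rest on the scatter of these libraries alone, and that scatter may be technical.

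LIN-35 is the only pocket protein of C. elegans, related to mammalian Rb, p107 and p130. It joins E2F-DP and the MuvB proteins in the DREAM complex, which sits at the promoters of cell cycle genes and represses them. In C. elegans larvae LIN-35 is also known for keeping germline genes off in the soma, for restraining RNA interference in somatic cells, and for its links with vulval fate and intestinal cell division. The descriptions below turn to families and tissues other than the cell cycle, and a few of their members are themselves DREAM targets.

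The 4 N2 and lin-35 libraries had totals of 14935013 to 18301926 reads, of which 11213150 to 14124245 lay in genes of the deposited table. Correlations of log2 values were 0.9918 between the N2 libraries, 0.9825 between the lin-35 libraries and 0.9233 to 0.9358 across genotypes. RPKM is printed as deposited, whereas differences are log2(RPKM + 0.5), lin-35 minus N2, after each library was divided by a size factor (0.968 and 0.952 for N2, 1.11 and 1.07 for lin-35). A gene with the same RPKM in both genotypes therefore has a slightly negative difference. The pseudocount of 0.5 makes the difference of a weakly expressed gene smaller than its ratio. At an adjusted p under 0.05 in limma, 12.1% of the tested genes were higher in lin-35 and 11.6% lower, with a median difference of -0.01, and the families below are read against these shares. Without the 564 tested genes on a cell cycle list or on the study's list of DREAM-8 genes, those with all 8 DREAM subunits at their promoter in L3 larvae, the shares were 10.6% and 11.6%. The gene lists and families below overlap, and a gene on several of them is counted in each. The deposited table leaves out genes that oscillate through the larval moults, which removes most cuticle and hypodermal genes.

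Rises and falls were of a different kind. The genes that rose had a median N2 level of 6.42 RPKM, 600 of them differed by at least 1 log2 unit, and 211 had an N2 mean below 1 RPKM. The genes that fell had a median N2 level of 62.6 RPKM and a median difference of only 0.57 in size, and 181 of them differed by at least 1 log2 unit. Over all tested genes the median N2 level was 12.4 RPKM. The calls followed the expression level: among the 731 genes with a mean of at least 100 RPKM, 49% were lower and 6.84% higher, with a median of -0.32. Among the 2266 genes between 1 and 5 RPKM, 2.43% were lower and 12.7% higher, with a median of 0.12. The filter and these bins use the mean over all 6 libraries. A gene nearly silent in N2 was therefore tested only where a mutant was higher. Shares of calls at low levels, in the bins and in families, partly reflect this choice. Quantile normalization, which forces the libraries to 1 distribution, brought the medians of these bins to -0.02 and -0.17, and RPKM as deposited gave -0.14 and 0.27. Falls of strongly expressed families are therefore to be read beside the bin of at least 100 RPKM.

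**Figure D1:**
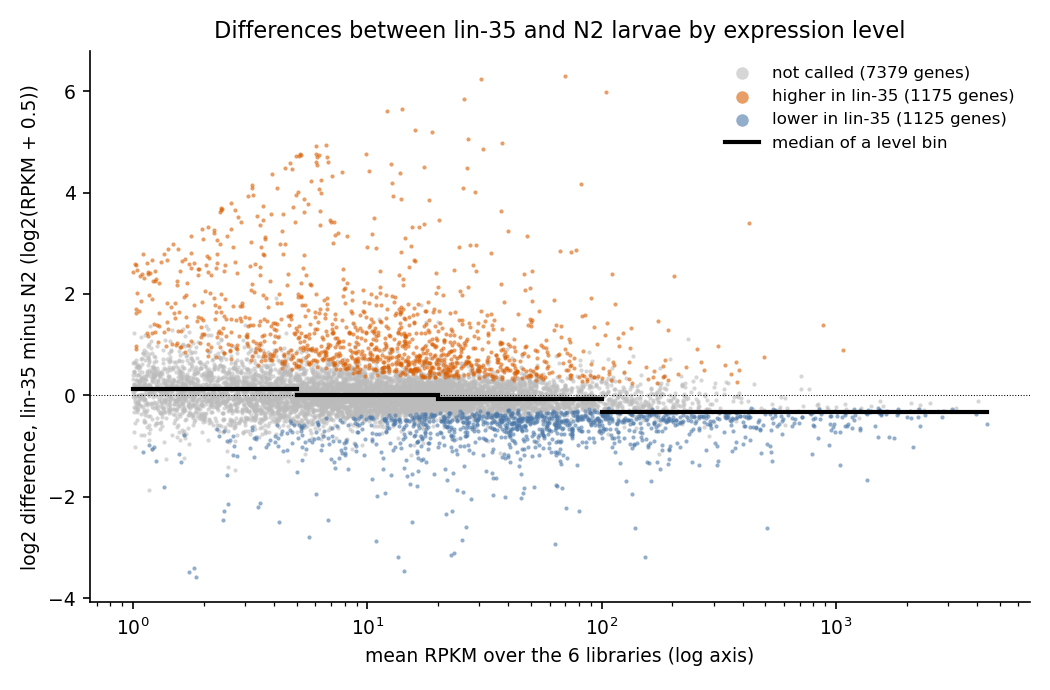
Log2 difference between lin-35 and N2 larvae (y axis, lin-35 minus N2) against the mean RPKM of each of the 9679 tested genes over the 6 libraries (x axis, log axis), with genes called higher in orange, genes called lower in blue and black lines at the median of each of 4 level bins. The large differences lie above 0 and at low levels, and the median falls from 0.12 below 5 RPKM to -0.32 at 100 RPKM and more.

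The list with the largest median difference was the intracellular pathogen response, the set of genes that worms switch on against microsporidia and the Orsay virus. Of 29 tested members of this list 26 were higher in lin-35 and 1 was lower, with a median difference of 4.42. Most of them belong to the pals family, proteins that share the ALS2CR12 signature and act in this response, of which 23 of 25 tested genes were higher, with a median of 4.45. The deposited table held 27 pals genes, and the level filter averaged all 6 libraries. A pals gene nearly silent in N2 was therefore tested only if a mutant raised its mean, so the share called higher partly reflects the filter. With the 1 member that had no read in N2 set at its lower bound, the pals median was 4.51.

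The pals genes were nearly silent in N2. RPKM of pals-14 was 0.839 and 0.508 in N2 and 92.1 and 59.1 in lin-35, a difference of 5.85 ± 0.29 (SE, n = 2 per genotype, adjusted p = 6.77e-05). For pals-33 the levels were 0.245 and 0.237 RPKM in N2 and 46.6 and 35.3 in lin-35 (5.65 ± 0.20, adjusted p = 1.96e-05), and for pals-32 they were 0.717 and 0.463 against 46.1 and 43.5 RPKM (5.24 ± 0.20, adjusted p = 2.94e-05). In each of these genes the lower lin-35 library lay far above the higher N2 library. In htz-1 larvae pals-33 was at 0.978 and 0.725 RPKM, above N2 and far below lin-35. No read of pals-8 was counted in N2, and its lin-35 level was at least 128-fold higher, against a floor of 3 reads over both N2 libraries.

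Only pals-17 and pals-22 of the tested family were not called, and their differences were positive too. With the replicate number as a block in the fit, 24 of the 25 tested pals genes were called higher. All 25 were called higher in the block fit of only the N2 and lin-35 libraries, so the 2 genes do not stand apart in direction. pals-17 and pals-22 are the members known to hold the response down: worms that lack pals-22 or pals-17 turn the pathogen response on. Their N2 levels were already well above 0, at 9.39 and 7.96 RPKM for pals-22 against 16.6 and 11.7 in lin-35 (0.49 ± 0.19, adjusted p = 0.11), and at 14.2 and 8.69 against 21.3 and 14.7 RPKM for pals-17 (0.47 ± 0.24, adjusted p = 0.219). After scaling, the genotypes overlapped for pals-17 and were separate for pals-22. The single member of the list that fell was pnp-1, a purine nucleoside phosphorylase that also represses the response. It dropped from 164 and 157 RPKM to 95.8 and 111 (-0.81 ± 0.10, adjusted p = 0.00191). Several pals genes are near copies of each other, and reads shared between copies may have been split or lost in counting.

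Parts of the cullin-RING ubiquitin ligase that acts with this response moved with it, by smaller steps. cul-6, the cullin, rose from 4.02 and 4.16 RPKM to 12.61 and 7.01 (0.94 ± 0.25, adjusted p = 0.0315). rcs-1, its RING partner, had 24.7 and 23.3 RPKM in N2 and 61.7 and 43.2 in lin-35 (0.91 ± 0.19, adjusted p = 0.0122). Among the Skp1-related adaptors 4 of 8 were higher and none lower, including skr-3 (100 and 95.7 RPKM against 207 and 138.8, 0.61 ± 0.16) and skr-2 (45.6 and 55.1 against 114 and 124, 1.06 ± 0.13). The general adaptor skr-1 stood at 247 and 231 RPKM in N2 and 246 and 244 in lin-35, a difference of -0.14 ± 0.07 that was not called. The count of Skp1-related genes was 2 without N2 replicate 1 or lin-35 replicate 1 and 1 without N2 replicate 2. drh-1, a RIG-I-like helicase that senses viral RNA, and zip-1, a bZIP factor of the response, rose by 0.53 ± 0.13 and 0.76 ± 0.12 on the log2 scale.

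Substrate adaptors of such ligases are large families in nematodes. Of 77 tested fbxa genes, which encode F-box proteins with an FTH domain, 25 were higher and 3 lower (median 0.39). Of 46 math and bath genes, with a MATH domain and often a BTB domain, 11 were higher and none lower (median 0.35). The deposited table held 160 fbxa and 71 math and bath genes. The level filter that chose the tested ones includes the lin-35 libraries, so these shares partly reflect it. No read of fbxa-75 was counted in N2, against 22.5 and 8.68 RPKM in lin-35, at least 209-fold more. fbxa-165 went from 0.0422 and 0.0511 RPKM to 15.2 and 10.9 (4.49 ± 0.30, adjusted p = 0.000144) and fbxa-182 from 5.06 and 2.39 to 42.8 and 34.6 (3.11 ± 0.33, adjusted p = 0.000823). The groups did not overlap in any of these genes.

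The rise was not shared by the whole of these families. fbxa-192 fell from 5.67 and 5.77 RPKM to 0.637 and 1.62 (-2.13 ± 0.34, adjusted p = 0.00481), and the 13 tested fbxc genes held no call in either direction. math-44 had 0.228 and 0.276 RPKM in N2 and 6.31 and 3.77 in lin-35 (2.71 ± 0.28, adjusted p = 0.000792), whereas math-33, the ortholog of the deubiquitinase USP7, was at 48.17 and 47.8 against 56.9 and 56.5 RPKM (0.06 ± 0.08, adjusted p = 0.631). The median level of the tested fbxa genes was 3.8 RPKM, where many genes shift under quantile normalization: their count became 19 higher and 4 lower, with a median of 0.13. Without N2 replicate 2 it was 15 higher and 1 lower, and the math and bath count was 6 higher.

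**Figure D2:**
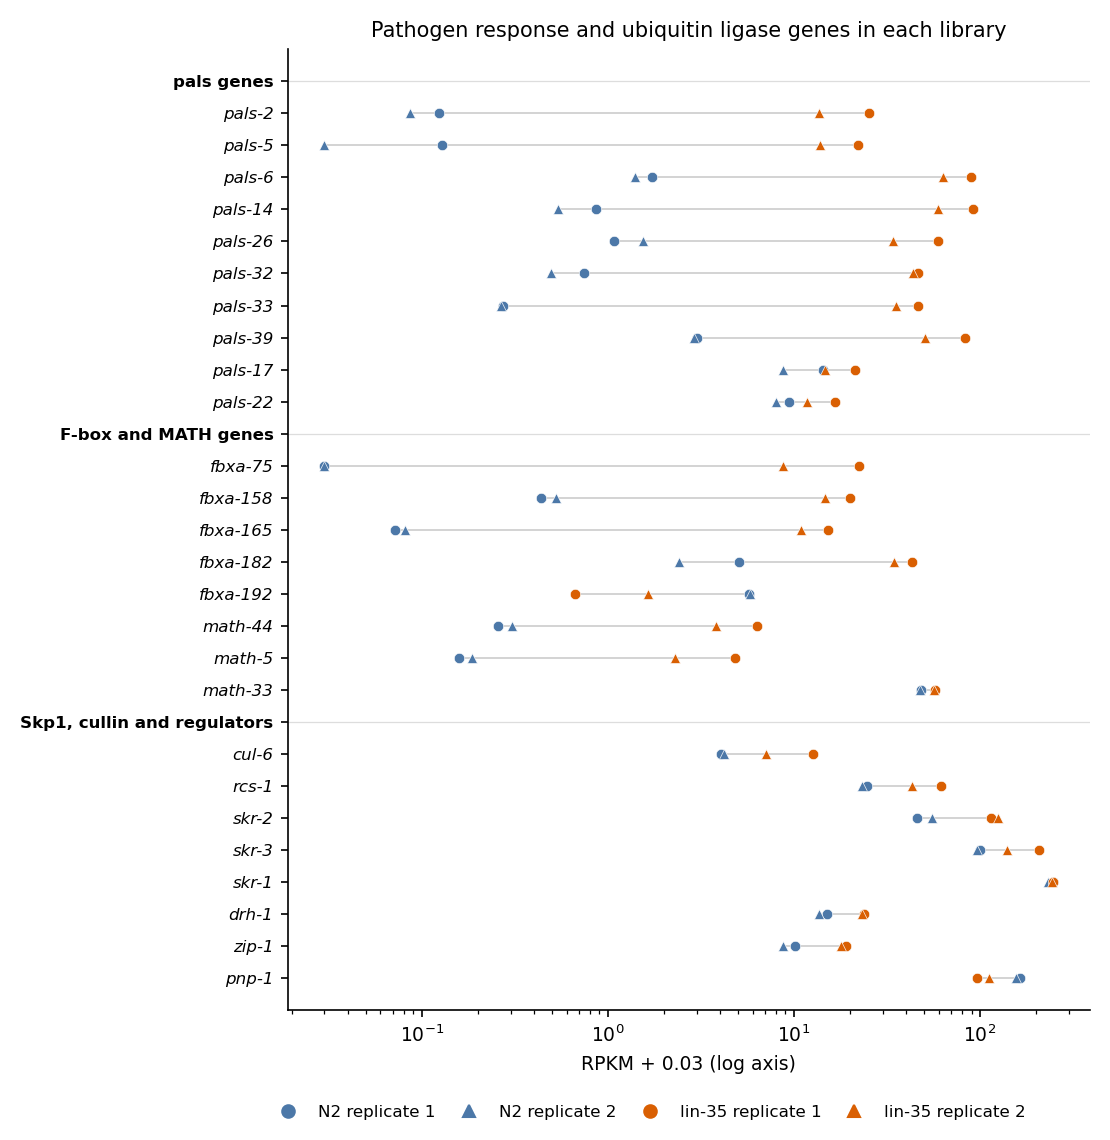
RPKM plus 0.03 (x axis, log axis) of pathogen response and ubiquitin ligase genes in the 2 N2 libraries (blue) and the 2 lin-35 libraries (orange), with replicate 1 as a circle and replicate 2 as a triangle. pals-14, pals-32 and pals-33 lie at or below 0.839 RPKM in N2 and at or above 35.3 in lin-35, whereas the values of pals-17, pals-22, math-33 and skr-1 lie close together.

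Secreted immune effectors rose too, but with members in both directions. Of 28 tested genes on the list of antimicrobial and immune effectors 15 were higher and 2 lower, with a median of 0.60. Lysozymes, which digest bacterial walls, were higher in 5 of 9 tested genes and lower in 1. lys-7 had 50.4 and 44.3 RPKM in N2 and 111 and 190 in lin-35 (1.43 ± 0.25, adjusted p = 0.00745), and lys-1, the strongest of them, 268 and 260 against 420 and 493 (0.61 ± 0.12, adjusted p = 0.0101). The invertebrate-type lysozyme ilys-5 went the other way, from 262 and 274 RPKM to 121 and 123 (-1.31 ± 0.15, adjusted p = 0.00105). Without either N2 library the lysozyme count was 1 higher and 1 lower, without lin-35 replicate 1 it was 3 higher, and the effector list held 9 higher without N2 replicate 2.

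Saposin-like proteins, the pore-forming antimicrobial family that also includes amoebapores in other organisms, split in the same way, with 5 of 14 tested genes higher and 2 lower. spp-18 rose from 60.7 and 35.6 RPKM to 187 and 136 (1.59 ± 0.34, adjusted p = 0.0154) and spp-15 from 23.9 and 20.6 to 81.4 and 62.9 (1.49 ± 0.15, adjusted p = 0.000726). spp-17 fell from 182.3 and 239 RPKM to 30.4 and 47.2 (-2.62 ± 0.30, adjusted p = 0.00118) and spp-4 from 96.8 and 94.0 to 30.3 and 29.9 (-1.83 ± 0.08, adjusted p = 4.64e-05). In all 4 the genotypes were separate, although without either N2 library or lin-35 replicate 1 only 3 members of the family were called higher. spp-5 was the most abundant member, at 629 and 613 RPKM in N2 against 1093 and 774, and was not called (0.39 ± 0.16, adjusted p = 0.127).

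C-type lectin genes, whose proteins bind sugars and many of which respond to bacterial infection, held 23 higher and 7 lower of 65 tested, with a median of 0.42. The deposited table held 202 of these genes, and the level filter includes the lin-35 libraries, so the shares partly reflect it. At a minimum mean of 5 RPKM there were 15 higher and 8 lower, with a median of 0.15. Quantile normalization gave 21 higher and 8 lower, with a median of 0.26. clec-12 rose from 0.461 and 0.305 RPKM to 18.4 and 8.09 (3.72 ± 0.39), clec-174 from 0.617 and 0.607 to 8.69 and 11.4 (3.09 ± 0.36) and clec-85 from 16.9 and 17.8 to 101 and 121 (2.46 ± 0.17). The largest fall in the family was clec-52, from 34.1 and 30.7 RPKM to 5.96 and 5.27 (-2.60 ± 0.11, adjusted p = 3.6e-05). clec-50, the most abundant uncalled member, was at 215 and 259 against 326 and 270 RPKM. Without N2 replicate 2 the count was 13 higher and 8 lower, and without N2 replicate 1 it was 17 higher and 3 lower.

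Other infection-responsive genes were higher. hpo-6 went from 20.2 and 17.4 RPKM to 125 and 68.1 (2.09 ± 0.29), dod-22 from 1.27 and 2.01 to 10.5 and 10.1 (2.197 ± 0.31), irg-2 from 0.640 and 0.634 to 2.92 and 4.71 (1.75 ± 0.29) and the flavin monooxygenase fmo-2 from 24.1 and 24.9 to 83.6 and 128 (1.88 ± 0.40). Adjusted p-values of these genes ran from 0.00266 to 0.0157. Among the peptides of the epidermal defence against fungi most of the called genes were lower. fip-5 fell from 76.4 and 94.1 RPKM to 23.9 and 22.6 (-2.02 ± 0.21, adjusted p = 0.000726) and fipr-13 from 9.41 and 9.36 to 1.21 and 1.70 (-2.50 ± 0.35, adjusted p = 0.00293). Of 7 tested fip and fipr genes 4 were lower, and 1, fipr-17, was higher, at 0 and 0.643 RPKM in N2 and 17.9 and 21.8 in lin-35 (4.604 ± 0.40, adjusted p = 0.000379). nlp-29, the best known reporter of that defence, was at 166.4 and 317 RPKM in N2 against 80.6 and 166.2 in lin-35 and was not called (-1.16 ± 0.39, adjusted p = 0.076).

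Signalling genes upstream of these effectors moved less. Of 26 tested immune signalling genes 5 were higher and 1 lower (median 0.15), and without either N2 library 1 was higher. cebp-1, a bZIP factor, rose from 19.4 and 23.8 RPKM to 50.6 and 73.1 (1.302 ± 0.21, adjusted p = 0.00493), and nipi-3, a Tribbles-like pseudokinase known to restrain cebp-1, from 46.4 and 51.1 to 81.1 and 114 (0.79 ± 0.17, adjusted p = 0.0159). vhp-1, a phosphatase that turns down the PMK-1 and KGB-1 kinases, rose from 14.8 and 13 to 23.8 and 32.7 (0.80 ± 0.17, adjusted p = 0.0155). For the kinase kgb-1 the levels of 54.9 and 48.6 RPKM in N2 and 56.6 and 46.1 in lin-35 lay close together, and it was not called.

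Germline genes did not move as a body. Of 38 tested germline markers 11 were higher and none lower, while the median of the list was -0.13 and the other 27 were not called. P granule and meiotic chromosome genes made up most of the rises. pgl-1, a P granule scaffold, rose from 53.5 and 57.5 RPKM to 219 and 225 (1.81 ± 0.13, adjusted p = 0.000197). him-3, a protein of the meiotic chromosome axis, rose from 6.44 and 7.84 to 68.6 and 64.1 (2.96 ± 0.20, adjusted p = 0.000162) and syp-1, a synaptonemal complex protein, from 9.28 and 9.84 to 61.8 and 62.3 (2.46 ± 0.10, adjusted p = 3.16e-05). Replicates of each genotype lay close together in these genes.

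Other well-known germline genes were not called. gld-1, a translational repressor of the early germline, was at 13.3 and 11.9 RPKM in N2 against 10.4 and 12.7 in lin-35 (-0.30 ± 0.20, adjusted p = 0.337), and cgh-1, a germline RNA helicase, at 49.1 and 48.3 against 42.1 and 48.8 (-0.28 ± 0.13, adjusted p = 0.164). syp-2, which acts beside syp-1, differed by -0.05 and was not called either. glp-1, the Notch receptor of the stem cell niche, rose from 8.99 and 8.17 RPKM to 20.1 and 20.3 (1.02 ± 0.11, adjusted p = 0.000898), and mes-4, a histone H3K36 methyltransferase of the germline, from 6.85 and 6.63 to 26.03 and 23.7 (1.64 ± 0.11, adjusted p = 0.000136). Leaving out lin-35 replicate 2 gave 11 higher and 6 lower, with a median of -0.31, and leaving out lin-35 replicate 1 gave a median of 0.13. The list's median was also 0.04 with RPKM as deposited, so no direction is given for the rest of the list.

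Among the genes with the largest rises, zhp-2 and pid-2 also act in the germline. zhp-2, a RING protein of meiotic crossover control, went from 2.75 and 2.32 RPKM to 51.3 and 45.8 (3.85 ± 0.13, adjusted p = 1.96e-05). pid-2, a piRNA pathway factor, went from 6.59 and 6.19 to 101 and 91.2 (3.64 ± 0.13, adjusted p = 1.96e-05). Oocyte and eggshell genes held 3 higher and 1 lower of 19 tested, and of 6 tested sperm genes 1 was higher. cpg-2, an eggshell proteoglycan, rose from 7.34 and 11.3 RPKM to 22.7 and 24.8 (1.16 ± 0.21, adjusted p = 0.00743). The oocyte fall, lin-41, a regulator of developmental timing and of oocytes, dropped from 62.9 and 61.1 to 36.03 and 35.3 (-0.97 ± 0.20, adjusted p = 0.0145) and was not called without any 1 of the N2 and lin-35 libraries. No vitellogenin gene passed the level filter.

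Gap junction genes moved in both directions. Innexins form the gap junctions of invertebrates, and 2 of 14 tested genes were higher and 5 lower. The risers were the pair that joins the germline to the gonadal sheath from the germ cell side in C. elegans. inx-21 rose from 4.83 and 4.31 RPKM to 38.9 and 33.1 (2.67 ± 0.14, adjusted p = 7.1e-05), and its neighbour inx-22 had a difference of 4.99 ± 0.12. inx-14, the third germ cell innexin, was at 4.19 and 4.76 RPKM in N2 against 3.24 and 4.61 in lin-35 (-0.34 ± 0.21, adjusted p = 0.297). inx-8, from the sheath side, was at 0.826 and 0.732 against 1.36 and 2.42 RPKM and was not called (0.74 ± 0.42, adjusted p = 0.26).

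Somatic innexins made up the falls. inx-3, which couples embryonic and epithelial cells, fell from 10.7 and 12.2 RPKM to 4.101 and 5.88 (-1.305 ± 0.20, adjusted p = 0.00425), and inx-2 from 2.43 and 3.66 to 1.26 and 0.845 (-1.31 ± 0.28, adjusted p = 0.0146). inx-16, the intestinal innexin that carries calcium waves, fell from 65.1 and 69.7 to 53.2 and 46.4 (-0.61 ± 0.14, adjusted p = 0.0181). inx-13 and inx-17 were lower by -0.69 and -0.79. Without N2 replicate 2 or lin-35 replicate 2 only 1 innexin was called lower, and 2 and 3 were without N2 replicate 1 or lin-35 replicate 1, while inx-21 and inx-22 were called higher in all 4 of these fits.

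Small RNA genes rose at some steps of the pathway and not at others. Of 46 tested genes, Argonautes and their partners, 13 were higher and 2 lower, with a median of 0.12. The Argonautes ppw-1 (22.7 and 19.9 RPKM in N2, 65.2 and 56.7 in lin-35, 1.32 ± 0.11), sago-2 (20.5 and 17.3 against 57.1 and 48.3, 1.28 ± 0.12) and vsra-1 (7.77 and 7.41 against 59.3 and 42.9, 2.48 ± 0.15) were among them. rrf-2, an RNA-dependent RNA polymerase, rose from 2.41 and 2.14 RPKM to 16.6 and 17.6 (2.498 ± 0.16, adjusted p = 0.000132). hrde-1, the nuclear Argonaute of germline inheritance, had the largest difference of the list, from 21.2 and 24.1 to 198 and 181.8 (2.86 ± 0.10, adjusted p = 1.96e-05). Both hrde-1 and ppw-1 are also on the germline list, so the counts of the 2 lists share genes.

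The double-stranded RNA binding protein rde-4 and the helicases drh-1 and drh-3 rose by 1.02, 0.53 and 0.65, and the endonuclease dcr-1 by 0.39. The piRNA Argonaute prg-1 was at 34.98 and 38.2 RPKM in N2 against 31.8 and 46.6 in lin-35 (-0.11 ± 0.22, adjusted p = 0.777), and csr-1 at 35.2 and 34.2 against 47.2 and 48.3 (0.28 ± 0.11, adjusted p = 0.119). ppw-2 fell from 57.0 and 60.9 to 26.5 and 42.8 (-0.98 ± 0.24, adjusted p = 0.0254). ppw-1 and sago-2 are close paralogs whose reads could be shared. Without either N2 library 7 genes were higher, and without lin-35 replicate 2 there were 9 higher and 5 lower.

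**Figure D3:**
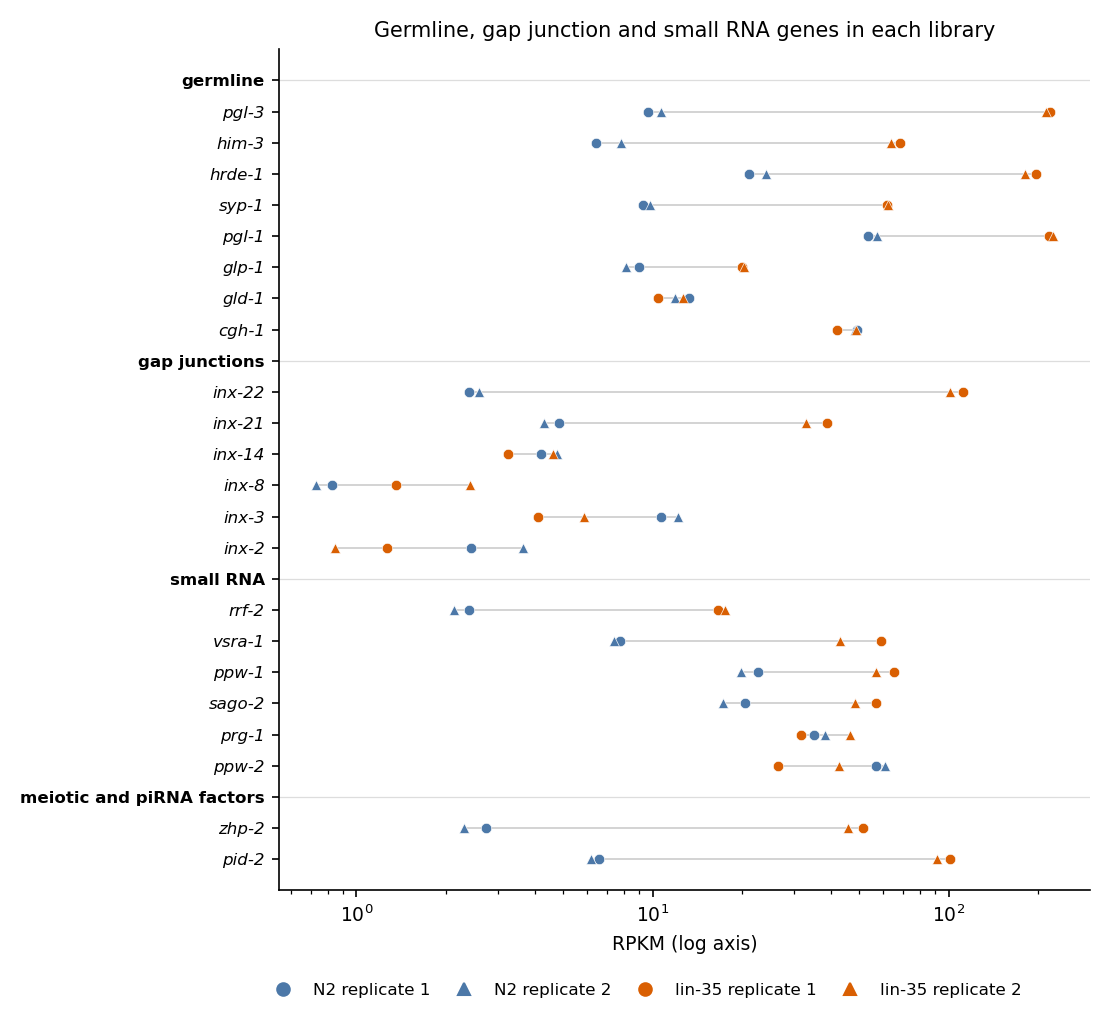
RPKM (x axis, log axis) of germline, gap junction and small RNA genes in the 2 N2 libraries (blue) and the 2 lin-35 libraries (orange), with replicate 1 as a circle and replicate 2 as a triangle. pgl-3, him-3, hrde-1, inx-22, zhp-2 and pid-2 are well separated between genotypes, whereas gld-1, cgh-1, inx-14 and prg-1 overlap in RPKM as deposited.

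Differentiated tissues were compared through lists of marker genes. Of 13 tested intestinal markers 8 were lower and 2 higher, with a median of -0.45. act-5, the actin of the intestinal brush border, fell from 769 and 651 RPKM to 436 and 371 (-0.99 ± 0.11, adjusted p = 0.00118). pept-1, the oligopeptide transporter, fell from 129 and 113.9 to 75.1 and 69.95 (-0.92 ± 0.19, adjusted p = 0.0132) and nhx-2, a proton exchanger, from 67.7 and 62.7 to 40.2 and 32.3 (-1.02 ± 0.11, adjusted p = 0.000925). pho-1, an intestinal acid phosphatase, fell from 100 and 88.3 to 55.5 and 46.4 (-1.06 ± 0.10, adjusted p = 0.000643). elt-2, the GATA factor that specifies the intestine, went the other way, from 13.9 and 12.24 RPKM to 28.1 and 19.6 (0.65 ± 0.17, adjusted p = 0.0332). Without either N2 library 4 markers were lower and none higher, and without lin-35 replicate 2 there were 4 lower and 2 higher.

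Muscle markers fell by less. Of 25 tested body wall muscle genes 14 were lower and none higher, with a median of -0.38. mlc-1, a myosin light chain, fell from 1154 and 1168 RPKM to 618 and 724 (-0.97 ± 0.10, adjusted p = 0.000919), and unc-54, the major muscle myosin heavy chain, from 1175 and 1265 to 744 and 932 (-0.73 ± 0.13, adjusted p = 0.00772). hlh-1, the MyoD-like factor, differed by -0.09 and was not called. This list had a median level of 159 RPKM, and its median lay near the -0.32 of all genes at 100 RPKM and above. Under quantile normalization 3 genes were lower, with a median of -0.16, and without N2 replicate 2 or lin-35 replicate 1 there were 4 and 8. All 5 tested actin genes were lower (median -0.65), of which act-1 and act-3 are near copies whose reads could be shared, and 2 of the 5 were called under quantile normalization.

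Nervous system markers held few calls. Of 28 tested neuron markers 2 were higher and 2 lower (median -0.10), and of 25 sensory cilium markers 1 was higher and none lower (median 0.10). sbt-1, the neuroendocrine chaperone, was at 118 and 132 RPKM in N2 against 136 and 159 in lin-35 (0.06 ± 0.12, adjusted p = 0.769), and egl-21, a neuropeptide-processing enzyme, at 92.4 and 86.2 against 92.9 and 103 (-0.05 ± 0.10, adjusted p = 0.767). snb-1, synaptobrevin, rose from 162.7 and 154 to 225 and 216 (0.30 ± 0.07, adjusted p = 0.0242), and cat-2, the tyrosine hydroxylase of dopamine neurons, fell from 3.13 and 3.91 to 2.08 and 1.77 (-0.87 ± 0.20, adjusted p = 0.0212). The signs of both medians depended on the scaling. So did the few calls: without the variance trend 1 neuron marker was higher and 1 lower, and under quantile normalization no cilium marker was higher and 1 was lower.

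Smaller tissue lists held few calls. The 5 glia and 8 coelomocyte markers had none, and among 5 tested pharynx markers eat-2 alone was lower. Of 8 excretory markers 1 was lower and 2 were higher: aqp-1, an aquaglyceroporin, rose from 56.8 and 63.3 RPKM to 153 and 157 (1.18 ± 0.09, adjusted p = 0.000251) and exc-4, a chloride channel of the excretory canal, from 21.99 and 21.7 to 41 and 34.2 (0.59 ± 0.11, adjusted p = 0.00963). Of 3 tested hypodermal markers lin-26, a zinc finger factor of epidermal fate, rose from 20.5 and 16.8 to 39.1 and 29.1 (0.67 ± 0.16, adjusted p = 0.0252). Several of these calls rested on single libraries. exc-4 was not called without either N2 library, no excretory marker was called lower without N2 replicate 1, N2 replicate 2 or lin-35 replicate 1, and lin-26 and eat-2 were not called in the same 3 fits.

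Peroxisomal genes had the lowest median of the metabolic lists. Peroxisomes shorten very long fatty acids, and in C. elegans the same enzymes trim the side chains of ascarosides, the dauer pheromones. Of 26 tested genes 17 were lower and none higher, with a median of -0.83, and the count stayed between 15 and 19 lower under the 3 scalings and the removal of any N2 or lin-35 library. All 4 steps of the shortening cycle took part. acox-3, an acyl-CoA oxidase of the first step, fell from 88.0 and 118.8 RPKM to 24.7 and 23.9 (-2.23 ± 0.16, adjusted p = 0.000214), and acox-1.1 dropped by 1.32 on the log2 scale. maoc-1, the hydratase, fell from 234 and 205 to 68.6 and 59.9 (-1.95 ± 0.10, adjusted p = 7e-05).

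The last enzymes of the cycle fell alike. dhs-28, the dehydrogenase, fell from 494 and 441 RPKM to 219 and 212 (-1.29 ± 0.08, adjusted p = 0.000115). daf-22, the thiolase that completes ascaroside synthesis, fell from 247 and 259 to 96.2 and 81.2 (-1.69 ± 0.10, adjusted p = 0.000114). dhs-18, another short-chain dehydrogenase on the list, fell from 143 and 143 to 33.7 and 32.5 (-2.27 ± 0.11, adjusted p = 4.86e-05). Peroxins, the import and membrane factors of peroxisomes, fell by varying amounts, as with prx-11 at 55.2 and 62.4 RPKM against 21.8 and 20.8 (-1.62 ± 0.10) and prx-5, the import receptor, by 0.59 on the log2 scale. nhr-49, a nuclear receptor that controls fatty acid oxidation, differed by 0.03. pmp-4, an ABC transporter, was at 31.4 and 37.5 RPKM in N2 against 31.4 and 29.6 in lin-35 and was not called.

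Breakdown of branched-chain amino acids and propionate fell in the same direction. Of 19 tested genes 12 were lower and none higher (median -0.48). hphd-1, which acts in the vitamin B12-independent propionate shunt, fell from 378 and 358 RPKM to 160 and 162 (-1.37 ± 0.16, adjusted p = 0.0013), hach-1 from 244 and 240 to 108 and 92.9 (-1.45 ± 0.24, adjusted p = 0.00534) and ivd-1, isovaleryl-CoA dehydrogenase, from 103 and 96.1 to 38.6 and 49.5 (-1.35 ± 0.15, adjusted p = 0.000919). ech-6, an enoyl-CoA hydratase, fell from 711 and 650 to 373 and 265 (-1.29 ± 0.22, adjusted p = 0.0061). Of these genes 11 had a mean of at least 100 RPKM, the bin whose median was -0.32. RPKM as deposited gave 9 lower with a median of -0.30, and quantile normalization 8 with a median of -0.27.

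Methionine, tyrosine and tryptophan metabolism held large single falls. cth-1, a cystathionine gamma-lyase of the transsulfuration route, fell from 174.1 and 159 RPKM to 64.9 and 52.3 (-1.68 ± 0.12, adjusted p = 0.000193). ahcy-1, which clears S-adenosylhomocysteine, fell from 3435 and 2797 to 1968 and 1531 (-1.02 ± 0.14, adjusted p = 0.00232), and sams-1, which makes S-adenosylmethionine, was at 385 and 316 against 325 and 202 and was not called. hpd-1, of tyrosine breakdown, fell from 385 and 392 to 213 and 203 (-1.08 ± 0.07, adjusted p = 0.000162). The methionine and one-carbon list had a median level of 99.6 RPKM. In it 9 genes had a mean of at least 100 RPKM, the bin where 49% of all genes were lower. Its falls numbered 5 with RPKM as deposited and 6 under quantile normalization. In the methionine and one-carbon list 7 of 18 genes were lower and 2 higher, and without N2 replicate 1 or 2 there were 2 and 4 lower. In the tyrosine, tryptophan and histidine list 5 of 9 were lower, with 2 without N2 replicate 1 and 3 without N2 replicate 2 or lin-35 replicate 2.

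Most glycolysis genes fell. Of 15 tested genes 12 were lower and 2 higher, with a median of -0.49. ldh-1, lactate dehydrogenase, fell from 239 and 231 RPKM to 136 and 125 (-1.03 ± 0.07, adjusted p = 0.0002), ipgm-1, phosphoglycerate mutase, from 194 and 198 to 126 and 114.3 (-0.89 ± 0.08, adjusted p = 0.000364) and pfk-1.1, phosphofructokinase, from 62.8 and 64.2 to 39.5 and 42.0 (-0.81 ± 0.09, adjusted p = 0.001). Both risers encode glyceraldehyde-3-phosphate dehydrogenase. gpd-4 rose from 42.6 and 44.9 RPKM to 190 and 187 (1.91 ± 0.09, adjusted p = 4.68e-05) and gpd-1 from 29.7 and 30.1 to 95.1 and 92.5 (1.45 ± 0.09, adjusted p = 0.000118). These genes are near copies, so how their reads divide is uncertain. At a median level of 123 RPKM the list is read beside the 49% lower of the top bin, and it held 8 lower with RPKM as deposited (median -0.31) and 7 under quantile normalization (median -0.25).

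Mitochondrial lists fell with small steps and 1 exception. In the tricarboxylic acid cycle 16 of 22 genes were lower and none higher (median -0.46), as with mdh-1 at 465 and 471 RPKM against 323 and 326 (-0.71 ± 0.07, adjusted p = 0.000768). In the respiratory chain 36 of 44 were lower and 1 higher (median -0.42). atp-1, the ATP synthase alpha subunit, fell from 903 and 924 to 654 and 701 (-0.61 ± 0.08, adjusted p = 0.00233). The riser was ucr-2.3, a core subunit of complex III, from 19.2 and 20.8 RPKM to 100 and 101 (2.12 ± 0.10, adjusted p = 4.64e-05), while its paralog ucr-2.1 fell from 186 and 193 to 149 and 158.2 (-0.48 ± 0.09, adjusted p = 0.00731).

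Both mitochondrial lists depended on scaling and on single libraries in size. Respiratory chain falls numbered 21 with RPKM as deposited and 9 under quantile normalization, and 16 and 11 without N2 replicate 1 or 2. Tricarboxylic acid cycle falls numbered 11, 6, 11 and 8 in the same order. Medians stayed negative in every one of these fits. The median levels of 206 and 162 RPKM put both lists in the top level bin, where the median of all genes was -0.32.

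Genes of the mitochondrial ribosome had a negative median under all 3 scalings. Of 68 tested mrpl and mrps genes 50 were lower and none higher, with a median of -0.48, at a median level of 41.5 RPKM where the whole bin from 20 to 100 RPKM had a median of -0.07 and 17.8% lower. mrps-21 fell from 71.2 and 71.3 RPKM to 36.6 and 33.2 (-1.199 ± 0.09, adjusted p = 0.00024) and mrpl-45 from 54.8 and 53.1 to 33.1 and 32.9 (-0.88 ± 0.09, adjusted p = 0.000689). mrps-11 was at 57.0 and 58.5 against 62.5 and 60.3 and was not called. Quantile normalization left 38 lower with a median of -0.41, RPKM as deposited 18 with a median of -0.30, and the removal of either N2 library 15.

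Cytosolic ribosomal proteins were also called lower, 31 of 43 rpl genes and 18 of 29 rps genes, each with a median of -0.31. Their median levels were 1200 and 1590 RPKM. rpl-5 fell from 1866 and 1914 RPKM to 1184 and 1258 (-0.81 ± 0.08, adjusted p = 0.000747), whereas rpl-7 was at 2194 and 2521 against 2314 and 2484 (-0.15 ± 0.10, adjusted p = 0.335). Under quantile normalization the medians turned to 0.06 and 0.05, with 1 rpl gene lower and 3 rps genes higher against 2 lower, so no direction is given for the cytosolic ribosome. Without N2 replicate 1, N2 replicate 2 or lin-35 replicate 1, 11, 6 and 16 rpl genes and 6, 2 and 9 rps genes were lower. The proteasome, which degrades ubiquitin-tagged proteins, held 1 call among 32 tested genes, pbs-1, with a median of -0.09 that became 0.09 with RPKM as deposited. The aminoacyl-tRNA synthetases held 8 lower of 32 (median -0.24), with 2 lower without either N2 library and 5 without lin-35 replicate 2.

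Mitochondrial chaperone and import genes were lower, with a median of about the size of the peroxisomal one. Of 13 tested genes of the mitochondrial stress response 9 were lower and none higher (median -0.80). tin-44, a subunit of the inner membrane import motor, fell from 77 and 67.7 RPKM to 35.3 and 36.8 (-1.17 ± 0.13, adjusted p = 0.000925), and phb-1, a prohibitin, from 269 and 257 to 152.2 and 148 (-0.99 ± 0.07, adjusted p = 0.000195). atfs-1, the factor that switches this response on, differed by 0.29 and was not called. The count was 8 to 9 lower under the 3 scalings and without any of the N2 and lin-35 libraries.

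**Figure D4:**
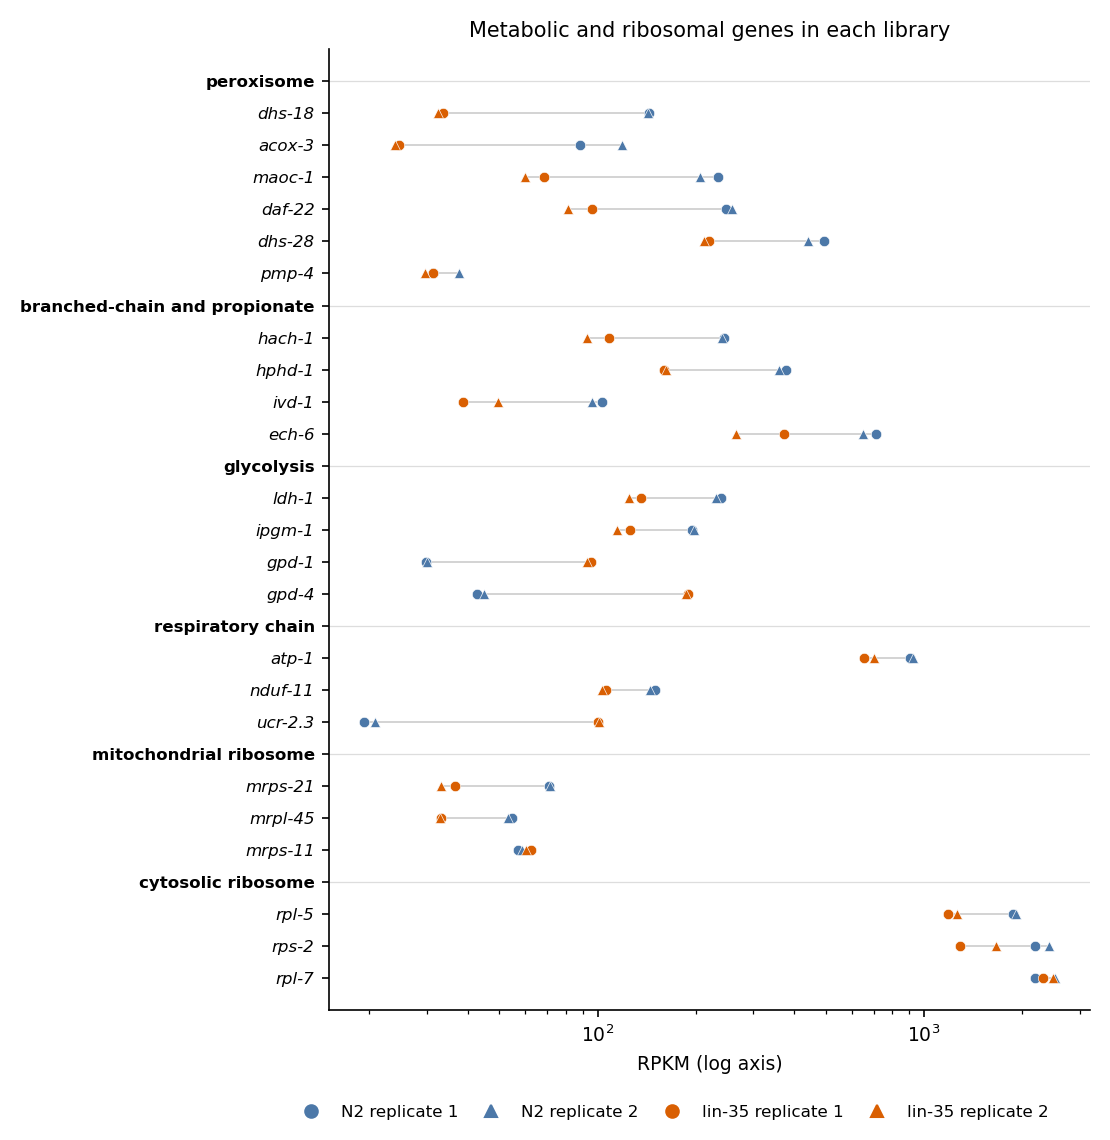
RPKM (x axis, log axis) of metabolic and ribosomal genes in the 2 N2 libraries (blue) and the 2 lin-35 libraries (orange), with replicate 1 as a circle and replicate 2 as a triangle. All peroxisomal genes drawn but pmp-4 lie well below N2 in lin-35, gpd-1, gpd-4 and ucr-2.3 lie above, and mrps-11 and rpl-7 differ little.

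**Figure D5:**
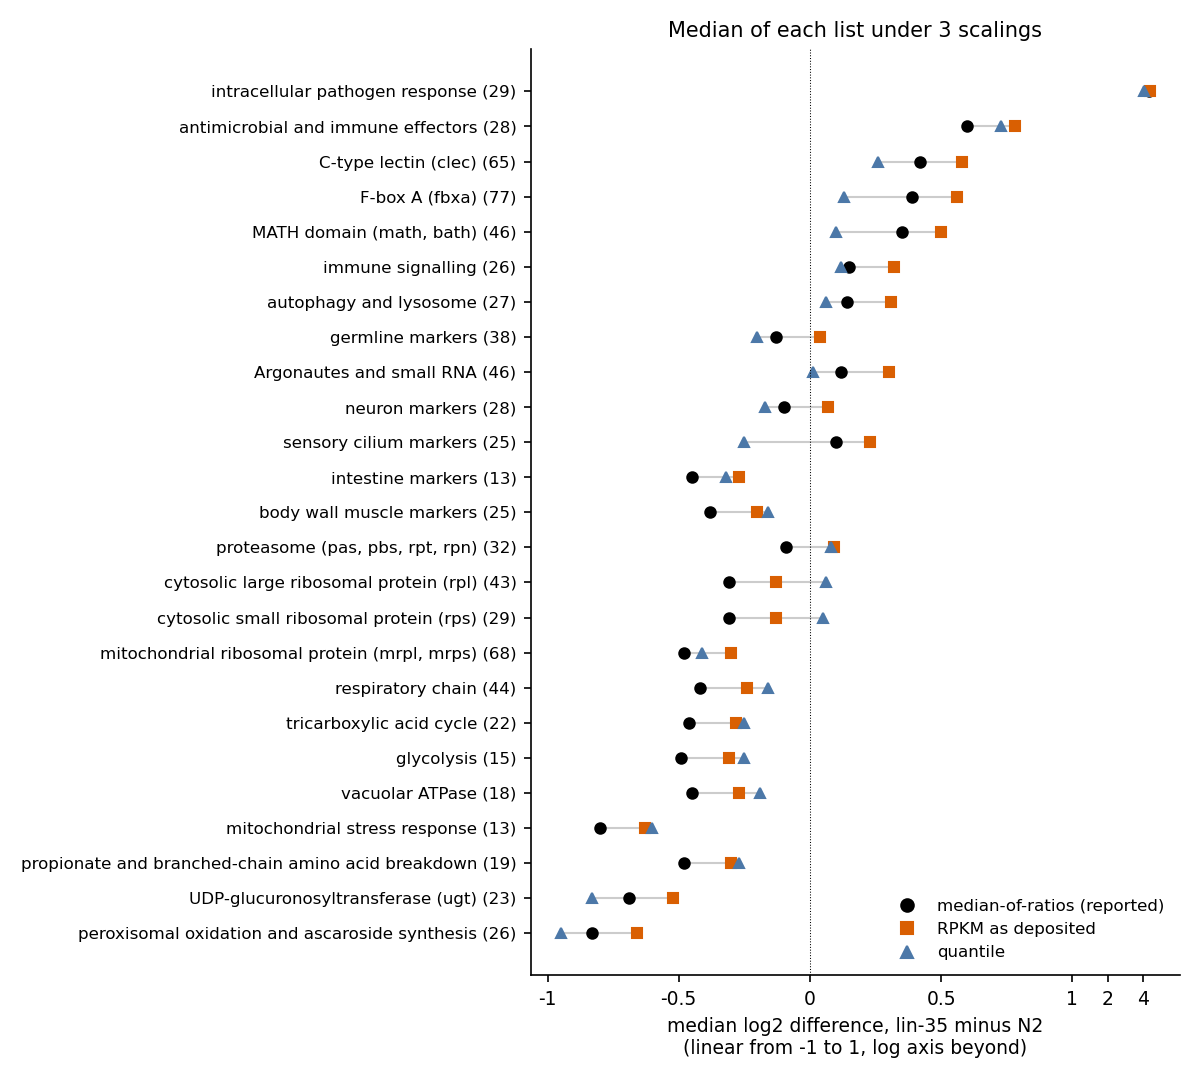
Median log2 difference (x axis, lin-35 minus N2, linear from -1 to 1 and logarithmic beyond) of 25 lists and families, with the number of tested genes in parentheses, under median-of-ratios scaling (black circles), RPKM as deposited (orange squares) and quantile normalization (blue triangles). The peroxisomal list stays between -0.95 and -0.66 and the pathogen response above 4, whereas the 2 cytosolic ribosome families, the proteasome, germline, neuron and cilium lists cross 0.

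Genes of the proton pump and of 1 detoxification family fell. Of 18 tested subunits of the vacuolar ATPase, the proton pump of lysosomes and the excretory cell, 15 were lower and 1 higher (median -0.45). vha-6, the intestinal a subunit, fell from 292 and 268 RPKM to 204 and 195 (-0.67 ± 0.07, adjusted p = 0.00107). unc-32, the a subunit of neurons, rose from 59.96 and 59.3 to 89.1 and 88.6 (0.39 ± 0.10, adjusted p = 0.0306). This single rise was not robust: without the variance trend no subunit was called higher and 12 were lower. The median level was 229 RPKM, and the median of the list lay near the -0.32 of the top bin. RPKM as deposited gave 11 lower with a median of -0.27, quantile normalization 6 with a median of -0.19, and the fit without N2 replicate 1 gave 8. Of 23 tested UDP-glucuronosyltransferases, which attach sugars to drugs and toxins, 12 were lower and 1 higher (median -0.69), and the count of falls ran from 10 to 13 under the 3 scalings. ugt-62 fell from 79.2 and 65.1 RPKM to 21.9 and 18.1 (-2.004 ± 0.16, adjusted p = 0.000279) and ugt-26 from 21.3 and 25.02 to 8.39 and 8.86 (-1.54 ± 0.13, adjusted p = 0.000329). Without N2 replicate 1 there were 7. Other detoxification families held fewer calls, with 3 higher and 2 lower of 23 cytochrome P450 genes and 1 higher and 5 lower of 28 glutathione S-transferases, with 1 and 3 transferases lower without N2 replicate 1 or 2.

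Heme and metal genes gave 6 lower and 1 higher of 19 tested (median -0.50), and 7 lower and none higher under quantile normalization (median -0.25). hrg-7, a secreted protease that signals heme status between tissues, fell from 79.2 and 69.6 RPKM to 20.2 and 23.4 (-1.92 ± 0.13, adjusted p = 0.000144), and hrg-1, a heme transporter, from 18.04 and 23.2 to 6.31 and 8.94 (-1.56 ± 0.24, adjusted p = 0.004). Of the cadmium-responsive genes cdr-2 fell from 53.8 and 50.4 to 19.9 and 20.2 (-1.53 ± 0.19, adjusted p = 0.0017). The antioxidant genes sod-1, gpx-1 and ctl-2 were lower by -1.31, -1.24 and -1.12, within a list of 25 in which 8 were lower and 1 higher. The riser was sod-3, a mitochondrial superoxide dismutase, from 0.394 and 0.238 RPKM to 4.099 and 1.90 (1.91 ± 0.38, adjusted p = 0.0109). Both N2 values of sod-3 lay below the pseudocount of 0.5, and its lin-35 libraries lay apart.

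Most autophagy and lysosome genes were not called. Of 27 tested autophagy and lysosome genes 5 were higher and 2 lower, with a median of 0.14 that was 0.06 under quantile normalization. No member was lower under quantile normalization or with RPKM as deposited. These counts are read beside the 12.1% higher and 11.6% lower of all tested genes, and no direction is given for the list. nuc-1, a lysosomal DNase, rose from 46.99 and 41.8 RPKM to 121 and 97.4 (1.11 ± 0.11, adjusted p = 0.000773), sqst-1, the autophagy receptor p62, from 22.1 and 24.8 to 46.8 and 50.4 (0.86 ± 0.11, adjusted p = 0.00185), and asah-1, an acid ceramidase, from 69.5 and 43.7 to 128 and 169 (1.23 ± 0.25, adjusted p = 0.0115). Without N2 replicate 1 or lin-35 replicate 2 there were 3 higher, and without N2 replicate 2 there were 2. Lipid and sugar storage genes moved in both directions. Of 21 yolk, lipoprotein and lipid droplet genes 4 were higher and 7 lower, and of 15 glyoxylate, gluconeogenesis and sugar storage genes 1 was higher and 8 lower. Without N2 replicate 2 these counts were 2 higher and 1 lower, and 1 higher and 1 lower, and with RPKM as deposited 4 higher and 2 lower, and 1 higher and 3 lower. The largest rises of these lists were lipl-2 and gyg-2. The lysosomal lipase lipl-2 rose from 6.41 and 9.02 RPKM to 46.4 and 36.9 (2.19 ± 0.26, adjusted p = 0.00143). gyg-2, a glycogenin that primes glycogen, rose from 2.22 and 2.64 to 24.1 and 25.12 (2.93 ± 0.15, adjusted p = 7e-05). Its paralog gyg-1 was at 89.2 and 95.9 against 86.1 and 94.4 and was not called.

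Several large regulatory families were close to the background or below it. Of the tested nuclear hormone receptors 6 were higher, 7 lower and 129 not called (median 0.05, which was -0.12 under quantile normalization), the largest rise being nhr-21 from 20.1 and 19.8 RPKM to 53.6 and 74.6 (1.46 ± 0.18, adjusted p = 0.00185). Without N2 replicate 1 or 2 the count of falls was 0 and 2, and without lin-35 replicate 2 there were 3 higher. Of 34 ceh homeobox genes 1 was called, ceh-39, an X-linked signal element of sex determination, from 2.35 and 2.33 to 5.67 and 5.54 (0.94 ± 0.16, adjusted p = 0.00676). Of 38 ligand-gated channels 1 was higher and 1 lower, of 25 twk potassium channels 2 were lower, and none of 9 hlh genes was called. These families are weakly expressed, with median levels from 2.41 to 6.19 RPKM, a range where 2.43% to 5.3% of all genes were called lower.

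Peptide signals varied from gene to gene. Of 58 nlp genes 6 were higher and 3 lower, and without N2 replicate 1 or 2 there were 1 and 0 higher. nlp-24 had the largest change, from 967 and 1274 RPKM to 167 and 248 (-2.62 ± 0.21, adjusted p = 0.000313), and nlp-12, of a stretch-sensing neuron, rose from 30.9 and 31.2 to 84.4 and 49.9 (0.87 ± 0.21, adjusted p = 0.0233). Of 30 flp genes 3 were higher and 1 lower, with none higher without either N2 library and 1 without lin-35 replicate 1. Of 16 insulin-like genes 4 were lower and 1 higher: ins-26 fell from 11.6 and 12.9 RPKM to 6.48 and 7.19 (-0.97 ± 0.17, adjusted p = 0.00668) and ins-11, an intestinal and neuronal peptide linked with immunity, rose from 6.34 and 3.12 to 13.8 and 11.2 (1.21 ± 0.30, adjusted p = 0.0268). Without N2 replicate 2 none of the insulin-like genes was called, and without N2 replicate 1 or lin-35 replicate 2 there was 1 in each direction. Downstream, the insulin receptor daf-2 and the FOXO factor daf-16 differed by 0.06 and 0.03 and were not called.

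A few chemoreceptor genes had large differences. The deposited table held 1142 genes of the serpentine family, and most lay below the level filter in whole larvae. Of 23 tested genes 5 were higher and 2 lower. The filter includes the lin-35 libraries, so these shares partly reflect it. srg-31 rose from 0.721 and 0.393 RPKM to 115 and 65.5 (6.24 ± 0.28, adjusted p = 4.64e-05). srd-4, a DREAM-8 gene, was at 0 and 0.0634 RPKM in N2 against 16.8 and 13.02 in lin-35 (4.73 ± 0.24, adjusted p = 7.1e-05). srbc-15 fell from 3.17 and 7.61 RPKM to 0.0778 and 0 (-3.41 ± 0.42, adjusted p = 0.00164), and it was at 0.0667 and 0 in htz-1.

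Some genes that changed alike sat side by side. Among 9451 tested genes with a known order on the chromosomes there were 17 runs of at least 4 neighbours called higher and 8 runs called lower, which held 94 of the 1175 higher and 41 of the 1125 lower genes. The longest run held 13 genes, pals-2 to pals-15 and their neighbours, with differences from 2.02 to 5.85. A run of 8 held fbxa-163, fbxa-164, fbxa-165, fbxa-166, fbxa-158 and bath-46 (1.91 to 4.49), a run of 4 math-15, math-14, math-10 and math-5 (1.57 to 2.46), and a run of 5 clec-62 to clec-66 (0.47 to 1.85). Another 5 neighbours, F26F2.1 to F26F2.5, differed by 3.41 to 4.76, and F26F2.4 had no read in N2 and was at 14.0 and 5.34 RPKM in lin-35, at least 46.3-fold higher. Near copies in such clusters can share reads, so their members are not separate measurements.

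Of the runs called lower, the 3 catalase genes ctl-1, ctl-2 and ctl-3 stood with their neighbours in a run of 6 (-1.15 to -0.60), and cdr-4, cdr-6 and cdr-2 in a run of 4 (-1.53 to -0.47). A run of 8 held irld-53 and mct-1 and a run of 7 held their paralogs irld-35 and mct-2. irld-53 was at 3.90 and 7.13 RPKM in N2 and at 0 in both lin-35 libraries, and irld-35 at 3.46 and 6.77 against 0 and 0. Both genes were also near 0 in htz-1, at 0 and 0.122 RPKM for irld-53 and 0.124 and 0.0529 for irld-35. mct-1 fell from 39.9 and 49.1 RPKM to 8.27 and 11.8 (-2.28 ± 0.20, adjusted p = 0.000378), and mct-2 from 36.7 and 45.4 to 7.18 and 10.7 (-2.33 ± 0.21, adjusted p = 0.000413). Here too reads could be shared between the copies, and the gene order comes from another assembly than the values.

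Finally, 44 genes were below 0.5 RPKM in both N2 libraries and above 5 RPKM in both lin-35 libraries, and none showed the reverse. They include 13 pals genes. Outside the families described above, F37D6.3 was at 0.214 and 0.130 RPKM in N2 against 31.5 and 40.0 in lin-35 (5.61 ± 0.24, adjusted p = 4.24e-05) and the ABC transporter wht-3 at 0.250 and 0.135 against 9.06 and 7.39 (3.52 ± 0.26, adjusted p = 0.000222). col-45, a cuticle collagen, was at 0.453 and 0.122 RPKM against 6.54 and 6.51 (3.06 ± 0.31, adjusted p = 0.000683). In htz-1 these 3 genes were at or below 0.432 RPKM. The tubulin gene tbb-6, which is switched on by mitochondrial stress in C. elegans, was not in this set, at 2.401 and 1.24 RPKM in N2 and 36.4 and 36.1 in lin-35 (3.87 ± 0.24, adjusted p = 0.000119), while the other 10 tested tubulin genes held 1 call.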

How the data were processed

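RNA-seq libraries of whole L3 larvae were made with a TruSeq kit from 2 µg of total RNA. The deposited values are RPKM per gene; the authors aligned reads to ce10 with BWA, counted them with HTSeq and compared genotypes with DESeq2, and whether counting used strand is not given in the sources used here. The deposited averages, fold changes and p-values were not used. Whole reads could be recovered from the RPKM steps for all 15568 genes within 0.002 of a read. Library totals are the RPKM denominators inferred from the same steps. In the N2 and lin-35 libraries the recovered reads made up 75.1% to 77.2% of those totals. Of the genes, 15398 were matched to symbols and 170 were not. Gene order came from WBcel235.

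RPKM was scaled by median-of-ratios size factors over genes with no 0, filtered at a mean of at least 1 RPKM, and tested as log2(RPKM + 0.5) with limma 3.58.1 in R 4.3.3. All 6 libraries entered 1 fit with genotype as the only term, a variance trend and the contrast lin-35 minus N2. Tests were two-sided with Benjamini-Hochberg adjustment over 9679 genes. On simulated data the fit recovered 92 of 100 genes changed by 1 log2 unit and all 100 changed by 2, with 12 false calls. The simulated noise was normal, with the spread estimated by the fit itself. Changed genes were drawn only from those with a mean N2 log2 value above 2, so recovery of weakly expressed genes was not measured. No set test was run. A list was described by its count of calls and its median beside those of all genes. Lists and families share genes: act-5, vha-6 and inx-16, for example, are also intestinal markers.

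The comparison, the 43 lists and the 66 families were chosen with earlier results of these data known. Genes were named as the largest changes, up to 4 called and 2 abundant uncalled members of each list, genes near 0 in N2, and runs of at least 4 neighbours, and others were added after their values were seen. The oscillating genes that the authors left out were checked against 2000 readable names, of which 0 were in the table. Alternatives were RPKM as deposited, quantile normalization, pseudocounts of 0.1 and 1, no filter or a minimum of 5 RPKM, replicate block, fewer libraries, no variance trend and limma-voom on recovered reads. Floors and recovered reads cover counting error only.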

Additional observations from a re-analysis of the deposited data

How the results depend on the processing

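Of 9679 genes 1175 were called higher and 1125 lower. With RPKM as deposited the counts were 1781 higher and 592 lower and the median of all genes moved to 0.15, and quantile normalization gave 1022 and 948 with a median of -0.08. Leaving out 1 library gave 655 to 1186 higher and 456 to 1137 lower, with the lowest counts without N2 replicate 2. limma-voom on recovered reads called 1172 higher and 1152 lower, and no variance trend gave 1048 and 811. Same-numbered N2 and lin-35 libraries carry a shared code of unstated meaning, and their deviations correlated at 0.318, against 0.0992 and 0.0162 for the pairs with htz-1. The replicate block gave 1287 higher and 1281 lower, and with only the N2 and lin-35 libraries 1614 and 1680. Of 161 called genes named above none changed sign under any alternative, while 40 were no longer called without N2 replicate 2, 27 without N2 replicate 1 and 9 under quantile normalization. The cause of these shifts was not tested. With 2 libraries per genotype, small differences of weakly expressed genes are at the limit of what could be detected.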
